A study of Homo sapiens with 20 samples.

Results

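The 5 genes described here, PTCH1, HHIP, GLI1, GLI2 and GLI3, belong to the Hedgehog signalling pathway, and H3K27ac, the acetylation of histone H3 at lysine 27 that marks active promoters and enhancers, was measured around them. Members were all H3K27ac peaks that overlapped a fixed window around each gene in the hg19 genome build. The windows were chr9:98100000-98400000 for PTCH1, chr4:145450000-145720000 for HHIP, chr12:57830000-57890000 for GLI1, chr2:121400000-121800000 for GLI2 and chr7:41950000-42350000 for GLI3. They held 9 of 98251 peaks in GFP replicate 1, 13 of 79555 in GFP replicate 2, 59 of 145533 in SMARCB1 replicate 1 and 47 of 135472 in SMARCB1 replicate 2. Merged where they overlapped across libraries, these peaks formed 58 of 167933 regions. No measured value entered the rule for the windows, but the members were chosen with earlier results of these data known.

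Hedgehog ligands bind the receptor PTCH1 and thereby release the signalling protein SMO from inhibition, which lets GLI transcription factors reach the nucleus as activators. HHIP is a membrane protein that binds the ligands and lowers signalling. PTCH1, HHIP and GLI1 are themselves target genes of the pathway, whereas GLI2 and GLI3 are the factors that carry the signal first, GLI2 mainly as an activator and GLI3 mainly as a repressor. SMARCB1, the chromatin remodelling subunit lost in rhabdoid tumours, binds GLI1, and its loss is known to raise GLI activity.

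All libraries came from G401, an established human rhabdoid tumour cell line with the genotype SMARCB1(-/-). Doxycycline induced GFP in the control cells and SMARCB1 in the others, so the GFP libraries show the line without SMARCB1 and the SMARCB1 libraries the same line with the subunit returned. Chromatin was cut with an enzyme and precipitated with a rabbit monoclonal antibody to H3K27ac, with 2 libraries per group. The dose and time of induction, the promoter of the transgene and the number of clones were not given in the sources used here, and the 16 samples of other antibody targets and input DNA were not analysed here.

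Depth was read from the number of fragments expected by the caller under a summit, which was solved from each peak's deposited values. The genome-wide value was lowest in GFP replicate 1, at 1.82 fragments, and between 3.74 and 4.09 in the other 3 libraries. GFP replicate 1 thus stood apart in depth, and the values of SMARCB1 replicate 1 had been scaled by 0.855, from a background of 4.79 fragments. Summit fragments below are whole fragments before that scaling, and backgrounds are after it, so the counts of that library are not on the scale of its background. Peaks covered 2.92% and 2.70% of the spanned genome in the GFP libraries and 4.005% and 3.31% in the SMARCB1 libraries, so the SMARCB1 lists were longer, and shares over the genome are given beside the counts of regions. The cells were measured in bulk, in which more cells with a mark and more of the mark per cell cannot be told apart.

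Promoter sequences are shown for the genes that RefSeq's promoter table holds (3 of the 5, on GRCh38.p14), because PTCH1 is a direct GLI target and because HHIP and 1 of the GLI2 starts are rich in CG dinucleotides, the class of promoter that is often acetylated. The 250 bases before a start site are given 5′ to 3′ on the gene's strand. In the PTCH1 sequence, chr9:95509267-95509516 on the minus strand, capitals mark the GLI consensus 9-mer GACCACCCA, present as its reverse complement TGGGTGGTC and beginning 172 bases before the start. In the HHIP sequence, chr4:144645906-144646155 on the plus strand, and the GLI2 sequence, chr2:120735618-120735867 on the plus strand, capitals mark CG dinucleotides.
PTCH1: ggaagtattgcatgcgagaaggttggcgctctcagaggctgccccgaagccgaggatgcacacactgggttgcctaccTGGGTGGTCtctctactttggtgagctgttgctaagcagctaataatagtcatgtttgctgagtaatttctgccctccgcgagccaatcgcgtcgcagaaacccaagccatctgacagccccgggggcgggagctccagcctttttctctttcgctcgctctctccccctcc
HHIP: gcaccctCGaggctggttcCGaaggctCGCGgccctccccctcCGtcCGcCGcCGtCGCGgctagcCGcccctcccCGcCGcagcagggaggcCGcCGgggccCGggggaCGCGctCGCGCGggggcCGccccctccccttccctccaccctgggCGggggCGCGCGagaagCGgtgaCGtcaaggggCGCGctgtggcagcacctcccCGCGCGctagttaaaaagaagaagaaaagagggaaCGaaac
GLI2: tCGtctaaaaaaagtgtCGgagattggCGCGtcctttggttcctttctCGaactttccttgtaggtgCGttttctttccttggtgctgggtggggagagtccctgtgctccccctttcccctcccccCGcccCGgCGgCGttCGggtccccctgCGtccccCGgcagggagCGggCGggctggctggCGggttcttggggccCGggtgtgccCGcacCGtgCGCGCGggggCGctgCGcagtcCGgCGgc
Of the 5 start sites of PTCH1 in the table, 1 held the 9-mer on either strand, and no start site of GLI2 or HHIP did. It was found in 83 of 35116 promoter windows of 300 bases, a share of 0.236%. The HHIP window had 36 CG dinucleotides, more than 87.3% of promoters, and the GLI2 window shown had 31, against a median of 14. The other GLI2 start in the table had 7, more than 36.8% of promoters. The match describes these letters only. The peak lists use hg19 and these sequences another build, so the promoters could not be placed on the peaks.

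PTCH1, the receptor, had the largest difference in peak number between the groups among the 5 windows, which differ in length. The window of 300 kb held 4 peaks in each GFP library, 44 in SMARCB1 replicate 1 and 35 in SMARCB1 replicate 2. Both SMARCB1 libraries lay above both GFP libraries, and the means were 4 ± 0 and 39.5 ± 6.36 peaks (SD, n = 2 per group; exact two-sided permutation test, p = 0.333, the smallest that 2 against 2 libraries allow). The length under peaks was 9773 and 9109 bp in the GFP libraries, against 27101 and 19216 bp in the SMARCB1 libraries, which is 9.03% and 6.41% of the window. Per Mb covered by the whole list, the window took 110 and 111 bp in the GFP libraries, against 222 and 191 bp after SMARCB1 induction. The groups therefore stayed apart after the length of the lists was taken into account. At a -log10 q of at least 5, the numbers were 4 and 4 against 22 and 19 peaks. After every library was thinned to the background of GFP replicate 1, the mean difference was 27.5 peaks in place of 35.5.

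**Figure D1:**
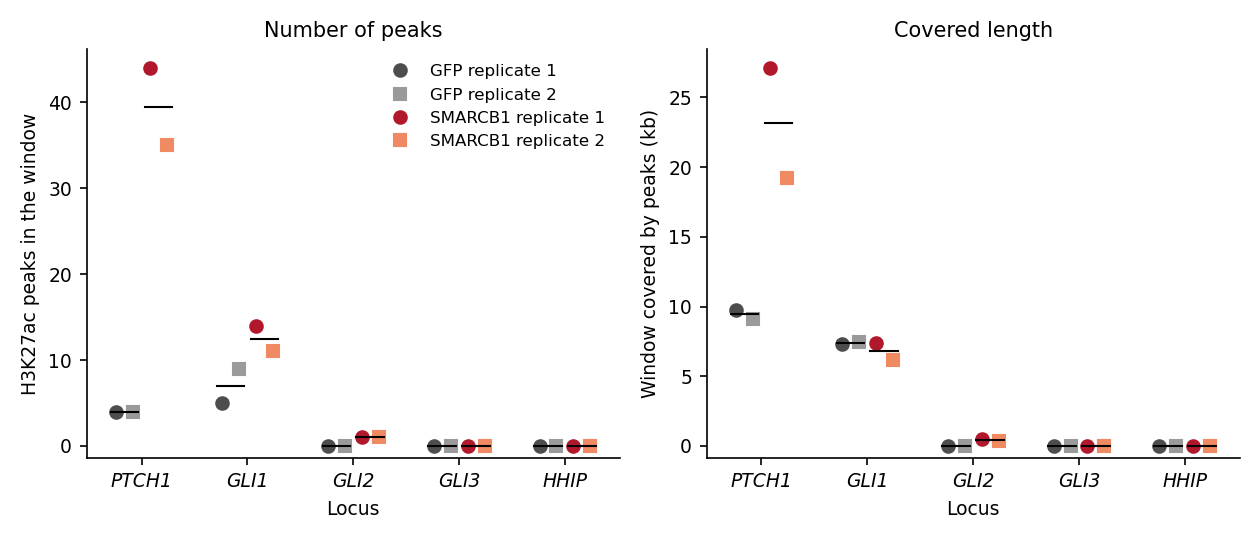
H3K27ac peaks per window (left, number) and length under peaks (right, kb) for each gene, with 1 point per library and a bar at each group's mean. In the PTCH1 window the SMARCB1 libraries lie at 44 and 35 peaks against 4 and 4 with GFP, while GLI3 and HHIP are at 0 in every library.

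The genome was also tiled in steps of 300 kb in phase with the PTCH1 window. Among the 5202 windows with a peak, 387 had a difference in peak number at least as large, which placed PTCH1 above 92.6% of them. In covered length, tested with limma on log2(bp + 1000) after each library was centred on its median window, PTCH1 rose by 0.57 ± 0.12 (SE) on the log2 scale (limma, Benjamini-Hochberg adjusted p = 0.00045 over 5029 windows). Higher calls made up 24.6% of these windows and lower calls 49.3%, so a higher call was common. The split depended on the centring, with 38.9% higher and 7.12% lower without it and 33.9% and 29.5% when each library was centred on its median deviation. Before centring the median window was 0.32 higher with SMARCB1, and PTCH1 was 1.19 higher. With the median deviation removed PTCH1 was 0.86 higher (limma, adjusted p = 0.00010).

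**Figure D2:**
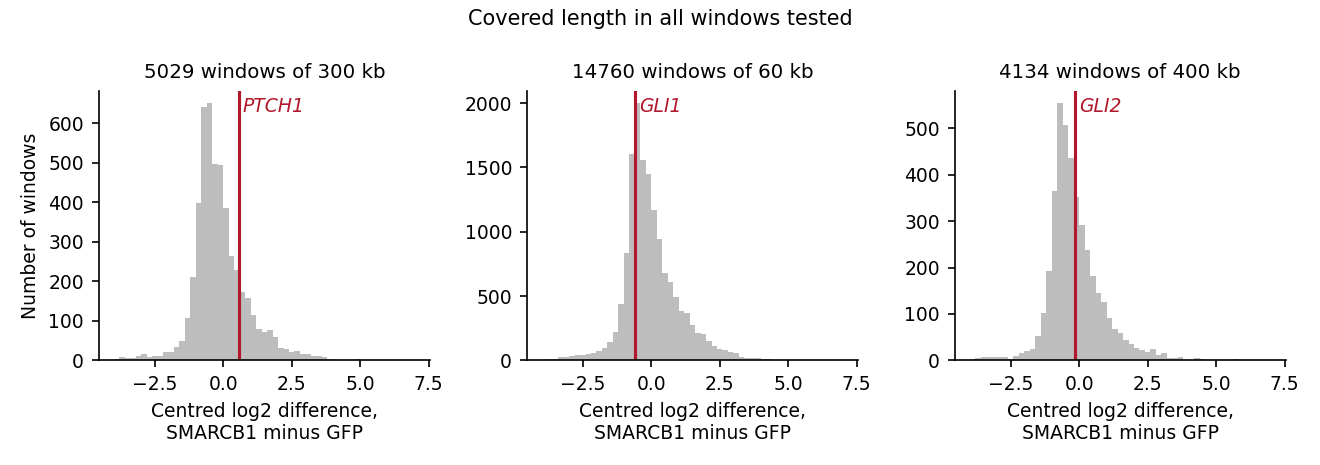
Histograms of the centred log2 difference in covered length, SMARCB1 minus GFP, over the windows tested (a peak in at least 2 libraries) of the lengths of the PTCH1, GLI1 and GLI2 windows, with a red line at each gene's window. PTCH1 at 0.57 lies above 81.1% of the tested windows of its length and GLI1 at -0.60 above 25.4%.

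The peaks of the PTCH1 window merged into 44 regions. A region is termed gained where each SMARCB1 library has a peak and no GFP library does, which held for 19 of them, 43.2% against 17.5% of all regions of the genome. No region was lost (the reverse pattern), against 3.94% genome-wide, and 3, or 6.82% against 16.7% genome-wide, were common to all 4 libraries. The other 22 regions had a peak in 1 library, 17 of them in SMARCB1 replicate 1 and 5 in SMARCB1 replicate 2. The number of gained regions depended on the list. With a -log10 q of 5 or more asked of each peak it was 8 (30.8% of the window's regions against 15.1% genome-wide), 9 with equal numbers of peaks (32.1% against 11.5%) and 12 after thinning (31.6% against 12.5%). Joining peaks within 1 kb gave 10 (62.5% against 18.7%), and a reciprocal overlap of 50% gave 11 (17.2% against 9.77%). The count stayed at 19 without GFP replicate 1 (42.2% against 22.5%) and without GFP replicate 2 (43.2% against 19.3%). Without SMARCB1 replicate 1 it was 29 (90.6% against 41.5%) and without SMARCB1 replicate 2 it was 39 (92.9% against 47.7%), where a single SMARCB1 peak sufficed.

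Gained peaks at PTCH1 were many but of ordinary height. Their median fold enrichment, the authors' ratio of the summit to the caller's background, was 3.77 in SMARCB1 replicate 1 and 3.88 in SMARCB1 replicate 2, beside 3.72 and 3.58 for gained peaks of the whole genome. They lay farther from acetylation of the GFP cells. The distance from a gained region to the nearest GFP peak ranged from 5283 to 92665 bp with a median of 25751 bp, against a median of 4432 bp genome-wide. Of the 19 gained regions, 17 were over 10 kb from a GFP peak, against 37.7% of gained regions genome-wide.

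By the lower fold of the SMARCB1 libraries, the first gained region lay at chr9:98284000-98285358, with a fold enrichment of 7.92 and 6.96 and 46 and 33 fragments at the summit in SMARCB1 replicates 1 and 2. The next lay at chr9:98343882-98344221, with fold enrichments of 8.92 and 5.40, higher than the first in SMARCB1 replicate 1, and at chr9:98144469-98145403, with 6.30 and 5.32. They stood on both sides of the common regions. The first 2 belonged to a stretch of 360734 bp, chr9:98275407-98636140, that had no GFP peak and held 6 of the window's gained regions. The stretch ran past the end of the window, and gained regions beyond that end were not counted. Gene models of hg19 were not used here, so whether a peak falls in an exon, an intron or a neighbouring gene was not determined. The genes next to PTCH1 in RefSeq's order are FANCC and ERCC6L2.

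The authors' deposited tables of stitched regions join peaks away from transcription start sites that lie within 12.5 kb of each other. In the SMARCB1 tables, 1 long region stood between the first and second common regions of PTCH1. It ran over chr9:98208748-98248331 in SMARCB1 replicate 1, with 19 joined peaks over 39.6 kb, and over chr9:98210690-98248963 in SMARCB1 replicate 2, with 16 joined peaks over 38.3 kb. Neither GFP library had a peak there. The authors' deposited table marked it as a super-enhancer, a long enhancer cluster ranked high by signal, in SMARCB1 replicate 1 only. The signal deposited for that library was shared by regions with the same ID, with 137 distinct IDs over 36063 stitched regions. Whether the mark reflects this region's own signal was therefore not determined. Marks made up 5.55% and 5.02% of stitched regions in the SMARCB1 tables and 3.37% and 3.35% in the GFP tables. No stitched region of the GLI1 and GLI2 windows was marked in any library.

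The 3 common regions of PTCH1 were acetylated in every library. At chr9:98271743-98275412 the fold enrichment was 24.4 and 16.0 with GFP and 13.8 and 13.1 with SMARCB1, with 68 and 75 against 81 and 63 fragments at the summit. At chr9:98267307-98271539 it was 20.6 and 15.2 against 12.9 and 11.1, with 71 and 71 against 92 and 73 fragments. Fold enrichments of separately called lists differ in scale, so each library's summits were also ranked over the 27997 regions common to all 4 libraries. Both regions stood above 85.7% of common regions in every library. Neither change in rank was called (limma on normal scores of the ranks, adjusted p = 0.531 and 0.572).

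The remaining common region, chr9:98187770-98190049, stood at percentiles 48.1 and 42.0 with GFP and 78.7 and 68.9 with SMARCB1 of summit fold. Its score rose by 0.77 ± 0.19 (SE; limma, adjusted p = 0.0272), where higher calls made up 6.99% and lower calls 5.72% of common regions. With 1 library left out, the lone library of an arm is assumed to vary like the other group. The score difference was then 0.85 without GFP replicate 1 (limma, adjusted p = 0.0913), 0.69 without GFP replicate 2 (0.143) and 0.62 without SMARCB1 replicate 1 (0.0955), of similar size but not called in these smaller fits. Its summit had 49 and 55 fragments with GFP and 65 and 39 with SMARCB1, which overlap, while the local background was 4.57 and 9.37 fragments with GFP and 4.09 and 3.89 with SMARCB1. Ranked by fragments in place of fold, the difference was -0.15 (limma, adjusted p = 0.537). The call therefore stood with the fold and not with the summit count.

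HHIP, the ligand-binding inhibitor, had no H3K27ac peak in any of the 4 libraries. Its window lay in a stretch without peaks of 1581 kb in both GFP libraries, 1497 kb in SMARCB1 replicate 1 and 1565 kb in SMARCB1 replicate 2. The stretch was thus long with and without SMARCB1. Of 11277 windows of 270 kb across the genome, 50.3% had no peak in any library, so an empty window of this length was common. The lists cannot separate the absence of the mark from a level under the caller's threshold.

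GLI1, the GLI factor that is also a target of the pathway, had more peaks with SMARCB1 over a similar total length. The window held 5 and 9 peaks with GFP and 14 and 11 with SMARCB1. Both SMARCB1 libraries had more peaks than both GFP libraries (7 ± 2.83 against 12.5 ± 2.12, SD, n = 2 per group; exact two-sided permutation test, p = 0.333), but with equal numbers of peaks per list the mean difference was 0. Of the 16082 windows of 60 kb with a peak, 75.2% had a smaller difference in peak number. The covered share of the window, 12.2% and 12.4% with GFP against 12.3% and 10.3% with SMARCB1, was above that of PTCH1. The length under peaks was 7329 and 7469 bp with GFP, against 7408 and 6173 bp with SMARCB1, and these ranges overlapped (exact two-sided permutation test, p = 0.667). Per Mb of the list, it was 82.5 and 90.8 bp in the GFP libraries, against 60.7 and 61.2 bp in the SMARCB1 libraries. A longer list thus came with no longer coverage here.

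Against the 14760 windows of 60 kb tested, the covered length at GLI1 fell by 0.60 ± 0.16 (SE) on the centred log2 scale (limma, adjusted p = 0.00104). Lower calls made up 39.6% of these windows, so the call was a common one. The direction held with every centring, but not the call, since without centring the difference was -0.11 (limma, adjusted p = 0.569). Without SMARCB1 replicate 1 it was -0.46 (limma, adjusted p = 0.0798). Without centring 34.1% of windows were called higher and 7.85% lower, against 26.4% higher with centring. When each library was centred on its median deviation, GLI1 was -0.41 (limma, adjusted p = 0.0248), with 31.1% of windows called higher and 26.2% lower.

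Of the 13 merged regions at GLI1, 4 were common (30.8% against 16.7% genome-wide), 1 was gained (7.69% against 17.5%) and none was lost (3.94% genome-wide). The gained region at chr12:57879459-57879890 was weak, with fold enrichments of 2.88 and 2.87, and lay 930 bp from a GFP peak. The remaining 8 were found in 1 library or in a mix of both groups. In RefSeq's order the gene stands between INHBE and ARHGAP9, with INHBC and MARS1 next outward. Without hg19 gene models no peak could be given to GLI1 or to one of these genes.

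The widest common region of the window, chr12:57853096-57856575, was a single peak in each GFP library and 4 separate peaks in each SMARCB1 library. It was covered over 3480 and 3396 bp in the GFP libraries, against 2136 and 2210 bp in the SMARCB1 libraries. Its fold enrichment was 16.6 and 10.98 against 6.24 and 6.34, and its summit had 46 and 51 against 36 and 30 fragments. Both SMARCB1 libraries had fewer summit fragments than both GFP libraries, although GFP replicate 1 had the lowest background. Among common regions it stood at percentiles 74.6 and 77.9 with GFP and 45.0 and 54.5 with SMARCB1, and its score fell by 0.72 ± 0.18 (SE; limma, adjusted p = 0.0282). Ranked by fragments, the score fell by 0.66 (limma, adjusted p = 0.00994). The score difference was -0.77 without GFP replicate 1 (limma, adjusted p = 0.105), -0.67 without GFP replicate 2 (0.154) and -0.60 without SMARCB1 replicate 1 (0.0826), of similar size but not called in these smaller fits.

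**Figure D3:**
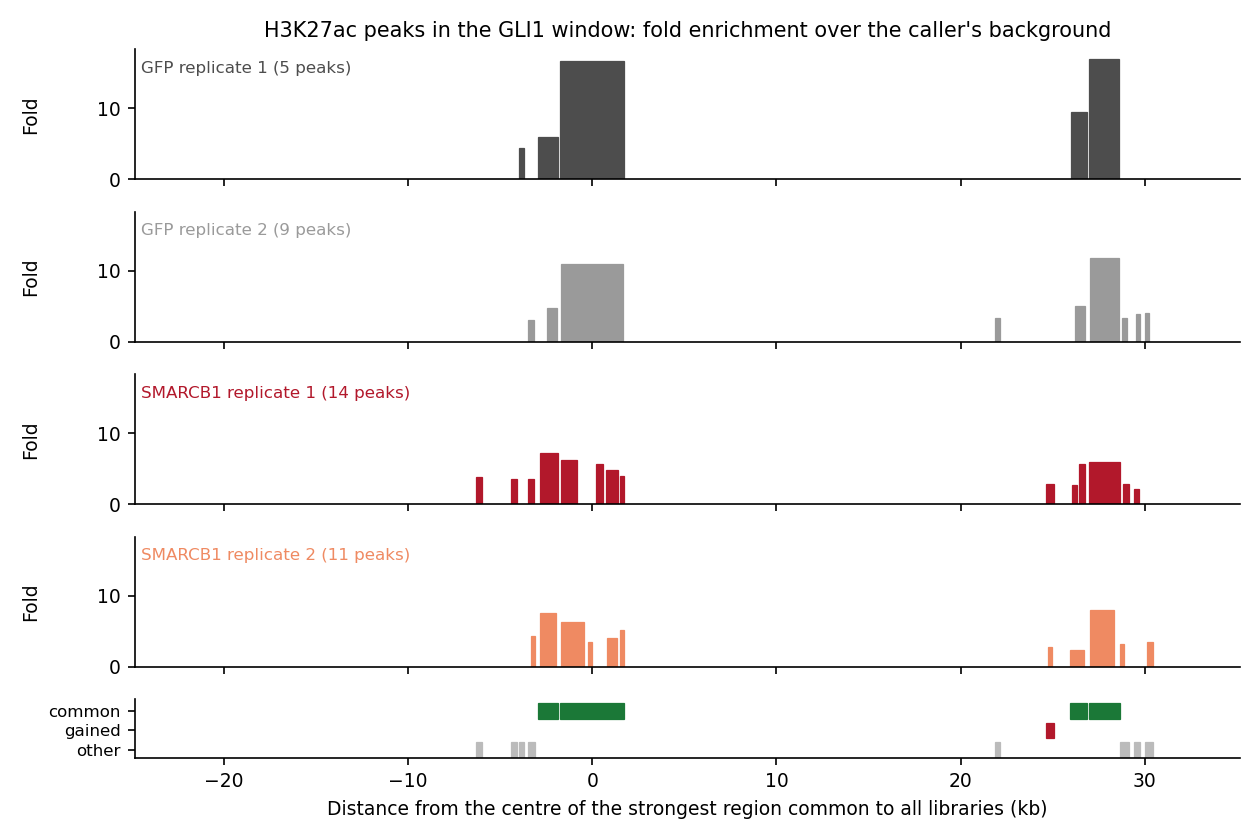
Peaks of the GLI1 window in each library, as fold enrichment over the caller's background (linear axis) against distance in kb, with merged regions by class in the bottom row. Distance is from the centre of the common region whose lowest fold over the libraries is highest, called strongest on the axis. Other common regions have a higher fold in single libraries. The region at 0 kb is 1 peak in each GFP library and 4 peaks in each SMARCB1 library.

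The neighbouring common region, chr12:57851877-57852990, was higher with SMARCB1 in both libraries, without being called from the full lists with no block. Its fold enrichment was 6.01 and 4.75 with GFP and 7.25 and 7.57 with SMARCB1, its summit had 16 and 28 against 42 and 36 fragments, and its score was 0.71 higher (limma, adjusted p = 0.0529). It was called at a -log10 q of at least 5 (limma, adjusted p = 0.0299), with equal numbers of peaks (0.0488) and after thinning (0.0427). With the replicate number as a block it was also called (limma, adjusted p = 0.0439), but not when ranked by fragments (0.0958). Without 1 library the score difference ranged from 0.57 to 0.85. At chr12:57881838-57883498, at the far end of the window, the fold enrichment was 16.9 and 11.8 with GFP and 5.91 and 7.92 with SMARCB1. Its summit held 51 and 55 against 68 and 46 fragments, so the fold differed while the fragments overlapped, and the background there was 2.08 and 3.74 against 9 and 4.93. The change in rank, -0.68, was not called (limma, adjusted p = 0.0753). It was called with the replicate number as a block (0.0282) and without SMARCB1 replicate 2 (-0.99, adjusted p = 0.0055), and was -0.36 without SMARCB1 replicate 1 (limma, adjusted p = 0.340). By fragments it was -0.01 (limma, adjusted p = 0.976).

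At chr12:57880764-57881683, the fourth common region, the fold enrichment was 9.42 and 5.07 with GFP and 5.74 and 2.33 with SMARCB1. These ranges overlap, and the low value of SMARCB1 replicate 2 set the score difference of -1.43 (limma, adjusted p = 0.192). It was -2.77 without SMARCB1 replicate 1 (limma, adjusted p = 0.00039) and -0.10 without SMARCB1 replicate 2 (limma, adjusted p = 0.879). Of the 4 common regions, 1 was called lower and none higher from the full lists of all 4 libraries without a block. There 5.72% of all common regions were called lower and 6.99% higher.

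**Figure D4:**
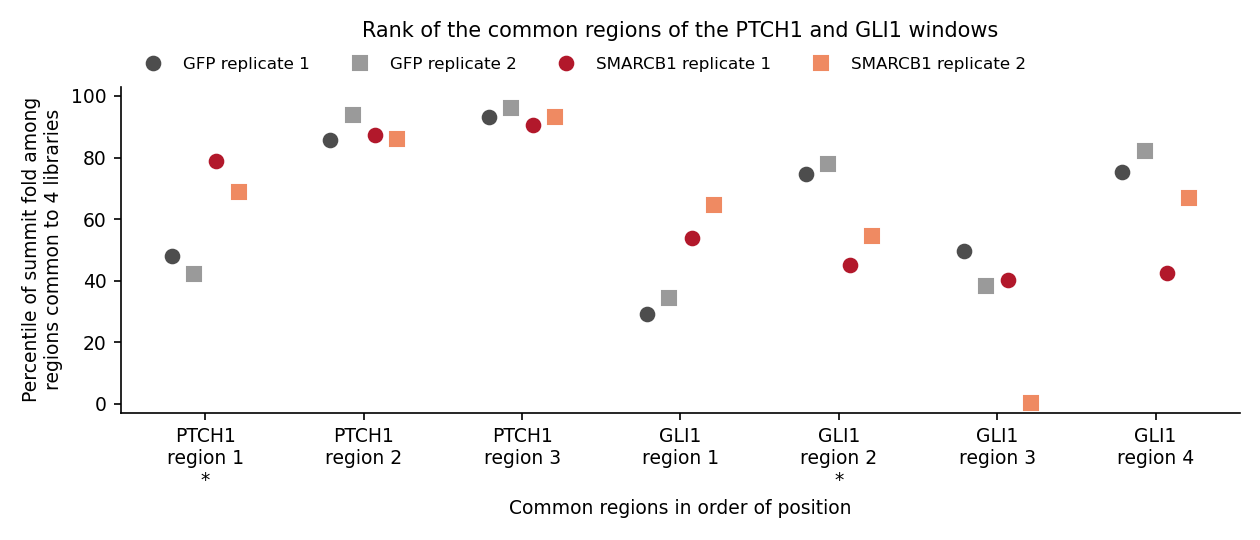
Percentile of the summit fold enrichment of each common region of the PTCH1 and GLI1 windows among the 27997 regions common to all libraries, with 1 point per library and a star at regions called by limma on the ranks. PTCH1 region 1 stands higher and GLI1 region 2 lower with SMARCB1.

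GLI2, the main activator of the pathway, had no peak in either GFP library and 1 in each SMARCB1 library. The peak was at chr2:121692678-121693182, with fold enrichments of 4.10 and 2.88 and 26 and 15 summit fragments. It stood alone in the window, 593942 bp from the nearest GFP peak, in a stretch of 1276122 bp without GFP peaks. Beyond the window, that stretch also held peaks of the SMARCB1 libraries, the first from 122110572 in replicate 1 and from 122119811 in replicate 2. In SMARCB1 replicate 2 the GLI2 peak did not reach a -log10 q of 5, and it was in no gained region with equal numbers of peaks or after thinning. The covered length, 0 and 0 against 505 and 361 bp, gave a centred log2 difference of -0.16 ± 0.18 (SE; limma, adjusted p = 0.427), while 75.7% of the 4134 windows of 400 kb were called. The sign depended on the centring, since without it the difference was 0.52 (limma, adjusted p = 0.00995), so no direction is given for GLI2 against the genome. Windows with peaks in each SMARCB1 library and none with GFP made up 3.72% of all windows of this length.

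GLI3, the main repressor, had no peak in any library. The stretch without peaks around its window measured 2192 kb in both GFP libraries, 2001 kb in SMARCB1 replicate 1 and 2084 kb in SMARCB1 replicate 2. Both ends of the stretch lay far outside the window with either induction. No peak in any library was found in 44.6% of the 7604 windows of 400 kb, so an empty window was common at this length too.

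Of the 21 gained regions, the PTCH1 window held 19 among its 44 regions (43.2%) and GLI1 had 1 among 13 (7.69%), against 17.5% genome-wide. The only region of GLI2 was gained, and GLI3 and HHIP had no region. All 7 common regions were at PTCH1 (6.82% of its regions) and GLI1 (30.8%), against 16.7% genome-wide.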

How the data were processed

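Groups came from the induced gene and antibody target in the labels, and nothing there says that libraries came from separate cultures. The p-values therefore hold for these 4 libraries only and not for separate cultures. In limma the variance of a window or region is also moderated toward the trend over all windows or regions fitted, so it is not that window's own spread alone. Reads had been aligned with BWA 0.7.12-r1039 to hg19, and SAMtools and bedtools used, per the submitters' processing notes. The authors used MACS2 to call peaks in every library separately, per the names in the deposited files. The caller's version, control and filter are not given in the sources used here. The deposited fold enrichment (a ratio), -log10 p, -log10 q and score of each peak are the authors'. Stitched regions came from ROSE, per the file headers. The deposited signal of those tables was shared by regions with the same ID and was not used, and 4 columns matched no sample and were not used. Tables were matched to libraries by name and because 100% of its region starts were in that library's list, against at most 1.01% in the others.

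Overlap was counted from 1 bp. Fragments and background per peak were solved from fold and -log10 p within 0.001, for 100% of peaks. Windows with a peak in at least 2 libraries entered limma with a trend on log2(covered bp + 1000), with a call at an adjusted p under 0.05. The 5 tilings were fitted separately. Scripts were tested on simulated data. Regions named were the 3 per class (common, gained, lost) with the highest lower fold. The members and lists were chosen with earlier results of these data known. The ranks of common regions were compared only after the data had been seen. Other genes of the pathway were not counted, as no hg19 annotation was used here. The alternatives tried were a stricter q (-log10 of 5 or more), lists shortened to the same number of peaks, thinned peaks, other merging, centring, pseudocounts and filters, the replicate number as a block and each library left out. Fits were run in R 4.3.3 with limma 3.58.1, and the rest in Python 3.11.15 with scipy 1.17.1, numpy 2.4.6, pandas 2.3.3 and matplotlib 3.10.9.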

Additional observations from a re-analysis of the deposited data

How the results depend on the processing

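The number of libraries and the absence of read totals limit every value, and 2 against 2 libraries cannot give an exact p below 0.333. PTCH1 had 8 gained regions at a -log10 q of at least 5, 9 with equal numbers of peaks and 12 after thinning. Peaks joined within 1 kb gave 10. These settings count fewer regions by construction, unlike a reciprocal overlap of 50%, which gave 11. Gained regions at GLI1 were 0 at the stricter q, 0 with equal numbers and 0 with joined peaks, against 15.1%, 11.5% and 18.7% of regions genome-wide. They were 4 with the reciprocal overlap (19.0% against 9.77% genome-wide), which also gave 1 lost region (4.76% against 3.75%). At GLI2 they were 0 at the stricter q, 0 with equal numbers and 0 after thinning. Without 1 library, gained regions ranged from 19 to 39 at PTCH1 and from 1 to 3 at GLI1. The 3 at GLI1 were without GFP replicate 2 (25% against 19.3% genome-wide) or SMARCB1 replicate 2 (23.1% against 47.7%). Lost regions at GLI1 ranged from 0 to 1. The 1 was without GFP replicate 1 (8.33% against 10.6% genome-wide) or GFP replicate 2 (8.33% against 15.3%). For super-enhancer marks at PTCH1, the difference of group means, SMARCB1 minus GFP, was 0.5. Without 1 library this difference ranged from 0 to 1 (1 without SMARCB1 replicate 2). The difference in peak number at GLI1 was 0 with equal numbers of peaks. Its difference in covered length was -608.5 bp, and from -1226 to 9 bp without 1 library, the last without SMARCB1 replicate 2. In limma, GLI1 ranged from -0.70 to -0.46 without 1 library, and was -0.11 without centring. GLI2 was 0.52 without centring, 0.92 with a pseudocount of 200 bp (adjusted p = 0.0155), -0.36 with 5000 bp (adjusted p = 0.0125) and 0.17 when centred on the median deviation (adjusted p = 0.344, an alternative added after seeing the data). It could not be fitted at the stricter q, with equal numbers, after thinning or without either SMARCB1 library. PTCH1 stayed called in limma, from 0.38 at the stricter q to 1.19 without centring. The rank difference of the PTCH1 region at chr9:98267307-98271539, -0.20, ranged from -0.44 to 0.039 without 1 library, the last without GFP replicate 2, and was 0.22 by fragments, and that at chr9:98187770-98190049 was -0.15 by fragments. The causes were not tested.

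With the replicate number as a block, the mean differences were unchanged by construction, at 35.5 peaks for PTCH1 and 5.5 for GLI1 (exact sign-flip test, p = 0.5, the smallest 2 pairs allow). Limma gave 0.57 for PTCH1 (adjusted p = 3.8e-07), -0.60 for GLI1 (adjusted p = 0.00139) and -0.16 for GLI2 (adjusted p = 0.413), and no call of these windows changed. Under the block, 26.2% of windows of the PTCH1 length were called higher and 51.9% lower, so calls were common. Lower calls made up 42.5% of windows of the GLI1 length, and 80.5% of those of the GLI2 length were called. Ranks of the GLI1 regions at chr12:57851877-57852990 and chr12:57881838-57883498 were called under the block (limma, adjusted p = 0.0439 and 0.0282). The difference of replicate 1 from replicate 2 had a Pearson r of 0.264 between GFP and SMARCB1 across 5029 windows, which are not independent replicates, and no label ties a number to a shared batch.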
